A study of Drosophila melanogaster with 6 samples.

Results

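The baseline transcriptome described here is that of heads of Canton S wild type males fed sucrose alone. Of 14604 genes in the deposited RPKM table (reads per kilobase of gene, scaled to the mapped reads of the library), the 9206 genes above 1 RPKM in each of the 3 sucrose libraries were taken as expressed, 63.0% of the table. The males were 3 to 5 days old and had fed on 2.5% sucrose for 12 h, and total RNA was extracted from whole heads, with 30 males per group. The study set these flies against males fed paraquat (PQ) in the same sucrose. Those 3 libraries are not used here. The design therefore holds a single condition with no contrast, and the question is which genes a sucrose-fed male head expresses, at what level, and how far the libraries of one condition differ. In the text, gene symbols are those of the deposited table, and a current symbol follows in brackets where it differs.

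The fly head is a composite tissue. The compound eyes and ocelli hold photoreceptors, in which rhodopsin activates a G protein and a phospholipase C that open the TRP channels, and arrestin ends the response. Beside them lie the brain with its neurons and glia, muscles of the proboscis and antennae, a layer of fat body under the cuticle, circulating hemocytes, and the olfactory organs on the antennae and maxillary palps. A whole-head library sums over all of these, so for every list below a difference in the number of cells of a type and a difference in RNA per cell cannot be told apart.

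The geometric mean RPKM over the 3 libraries, which gave the ranking, had a median of 18.0 over the 9206 genes, with 3.41 at the 10th percentile, 96.0 at the 90th and 637 at the 99th. The level was over 100 RPKM for 882 genes and over 1000 RPKM for 24. The first 10 genes of the ranking made up 6.22% ± 0.0723 of the summed RPKM (SD, n = 3 libraries), the first 100 genes 21.8% ± 0.604 and the first 1000 genes 62.3% ± 1.06. Of the expressed genes 9136 were protein-coding and 70 non-coding. None of the 297 tRNA, 100 rRNA and 64 pseudogene entries qualified.

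No value in the table is below 1, and 35.3% to 35.4% of all genes stood at exactly 1 in each library. The value of 1 is therefore a floor, and the level of a gene at 1 is unknown. At 1 RPKM in all 3 libraries were 4927 genes, while 259 were above it in 1 library and 212 in 2. Just inside the rule, 64 genes had a lowest library under 1.1 RPKM. Just outside it, the 212 genes above 1 RPKM in 2 libraries had a median geometric mean of 1.24 RPKM and a highest of 4.33 RPKM. Read counts per gene are not given, so the depth behind each value is unknown and the error stated is the spread between the 3 libraries. The highest library was replicate 1 for 2789 of the 9206 expressed genes, replicate 2 for 4181 and replicate 3 for 2236. The lowest was replicate 1 for 4077, replicate 2 for 2811 and replicate 3 for 2318. Counts of the highest or lowest library in each list below are to be read against these uneven shares. The libraries differed from each other in some gene groups, which are named where their values are given: replicate 1 in some hemocyte genes and in Turandot, cuticle and muscle genes, replicate 2 in antibacterial peptides and long transcripts, and replicate 3 in some antennal genes and immune peptides.

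The eye headed the ranking. ninaE, the Rh1 opsin of the outer photoreceptors (chromosome 3R of dm3, 15711968 to 15713928), had 7618, 7961 and 7129 RPKM in replicates 1, 2 and 3, a mean of 7570 ± 418 RPKM (SD, n = 3). Its level was 421 times that of the median expressed gene. The arrestin Arr2 had 3859, 4234 and 3830 RPKM and its partner Arr1 3809, 4103 and 3716 RPKM, next to ninaE in the ranking. Arr2 and Arr1 were almost equal in every library, with a ratio of Arr2 to Arr1 of 1.03 ± 0.0104 (SD, n = 3). All 36 genes of the photoreceptor list were expressed, at a median of 336 RPKM, against 18.0 RPKM over all expressed genes. Of these, 8 were among the first 30 of the ranking, and the 8 include Pdh, a gene of the pigment cells.

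**Figure D1:**
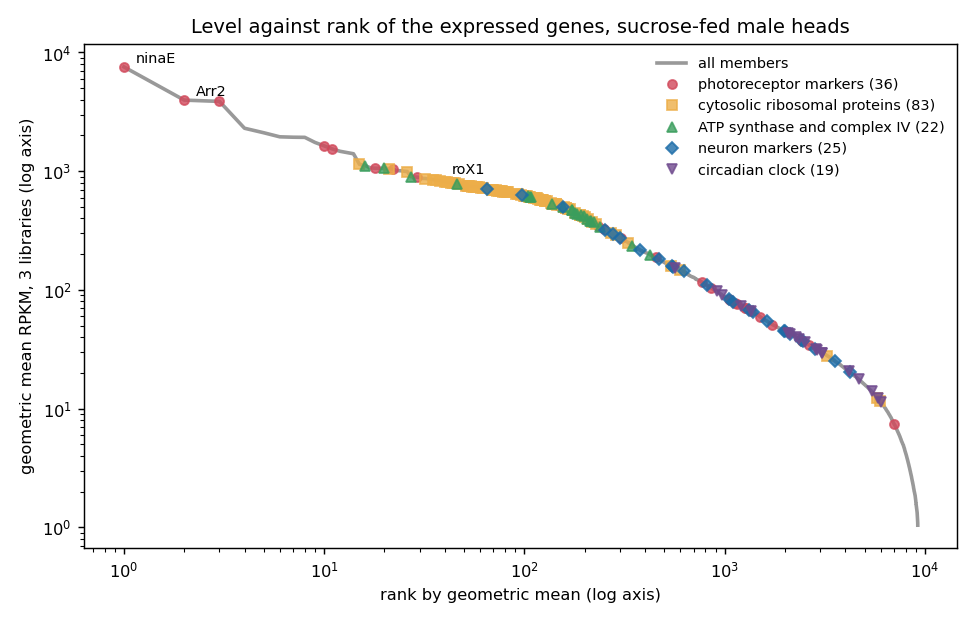
Geometric mean RPKM over the 3 sucrose libraries against rank, both on log axes, for the 9206 expressed genes (grey line), with the members of 5 gene groups as symbols. Photoreceptor genes hold the first 3 places, and the ribosomal proteins crowd together below 1142 RPKM, the level of RpL5.

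The 6 opsins each mark a class of light-sensing cell, and their order was the same in every library. Next to ninaE stood the opsins of the inner R7 cells, which detect ultraviolet light, with 828, 953 and 899 RPKM for Rh4 and 614, 760 and 678 RPKM for Rh3. The opsins of the R8 cells were lower, at 495, 577 and 500 RPKM for the green-sensitive Rh6 and 176, 202 and 186 RPKM for the blue-sensitive Rh5. Between them lay Rh2, the opsin of the ocelli, at 349, 343 and 352 RPKM, which was the least variable opsin (SD of log2 RPKM 0.02). The ranges of neighbours in this order over the 3 libraries did not overlap.

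Ratios between opsins varied little. Rh4 was 1.35, 1.25 and 1.33 times Rh3, a mean of 1.31 ± 0.0500 (SD, n = 3). Rh6 was 2.82, 2.86 and 2.69 times Rh5, a mean of 2.79 ± 0.0891. Both pairs are expressed in complementary subsets of R7 and R8 cells, as background. The summed level of Rh3 and Rh4 was 2.22 ± 0.0777 times that of Rh5 and Rh6, so the R7 opsins were higher than the R8 opsins in every library. ninaE made up 74.2% ± 1.26 of the summed RPKM of the 6 opsins.

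Genes of the light response cascade followed at similar or lower levels. The visual G protein was uneven in its subunits: Ggamma30A had 1563, 1706 and 1638 RPKM, Gbeta76C 918, 1158 and 1058 RPKM, and the alpha subunit Galpha49B (Galphaq) 257, 273 and 289 RPKM. The phospholipase norpA had 403, 368 and 408 RPKM. The light-activated channel genes differed from each other, with trp 1.58 ± 0.0472 times as high as trpl (SD, n = 3). In the signalling complex, the scaffold inaD had 530, 635 and 581 RPKM, the protein kinase C inaC 611, 655 and 654 RPKM and the myosin III ninaC 693, 799 and 781 RPKM.

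**Figure D2:**
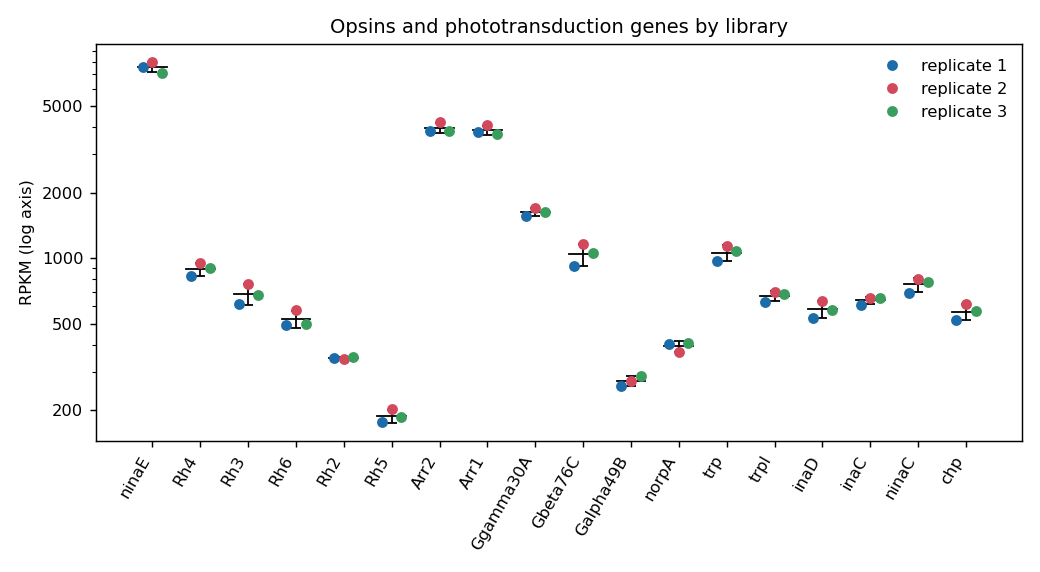
RPKM on a log axis for the 6 opsins and 12 other photoreceptor genes, a point per library, with a bar at the mean and an error bar of 1 SD over the 3 libraries. ninaE lies at 7129 RPKM or more in each library and Rh5 lowest, between 176 and 202 RPKM.

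Several supporting genes of the eye were in the first 30. Pdh, a retinol dehydrogenase of the pigment cells, had 1488, 1673 and 1461 RPKM, and retinin, a protein of the corneal lens, 1384, 1566 and 1365 RPKM. retinophilin (rtp), a photoreceptor protein, had 802, 990 and 897 RPKM. All 21 genes of eye pigment and lens were expressed, with a median of 31.9 RPKM, but the pigment transporters white (w, 8.01, 8.65 and 8.77 RPKM) and scarlet (st, 11.6, 15.8 and 15.4 RPKM) were far lower than retinin. The most variable photoreceptor list gene was ninaD, a scavenger receptor needed for carotenoid uptake, at 13.7, 5.61 and 5.29 RPKM. Of the 13 genes of photoreceptor subtype, which include 4 opsins, 12 were expressed, at a median of 21.9 RPKM. The lowest of these 12 were the R7 subtype factor ss, with 2.34, 1.85 and 2.08 RPKM, and the R8 subtype gene melt, with 2.10, 1.61 and 1.5 RPKM.

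Genes of other functions, energy metabolism and translation among them, held the rest of the first 30 places. noe, an RNA now annotated as non-coding, followed Arr1 at 2289, 2368 and 2246 RPKM. The ADP/ATP translocase sesB had 1772, 2058 and 2027 RPKM, the calmodulin gene Cam 1688, 1751 and 1801 RPKM, and the neuropeptide-like precursor Nplp3 1731, 2217 and 1881 RPKM. PebIII (EbpIII), named for the ejaculatory bulb, had 2120, 1965 and 1719 RPKM. Elongation factors Ef1alpha48D (eEF1alpha1) and Ef2b (eEF2) were at 1402 and 1009 RPKM by geometric mean. CG8343 was at 1866, 2410 and 2077 RPKM, and CG17108 had 1173, 1014 and 840 RPKM. CG3088 and CG8329, both annotated as serine endopeptidases in the table, had 1068 and 1059 RPKM by geometric mean. Of the first 30 genes, 13 share part of their interval with another gene of the table, and whether counting used strand is not given in the sources used here.

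Ribosomal proteins were the largest group among the abundant genes. Of 91 genes of the cytosolic ribosomal protein family 83 were expressed, 39 of them among the first 100 of the ranking, and they took 10.6% ± 0.642 of the summed RPKM (SD, n = 3). Their median was 615 RPKM, with RpL5, RpL41 and RpL7A highest at 1142, 1053 and 993 RPKM. The other 8 genes stood at 1 RPKM in all 3 libraries. Of the 83, 81 were highest in replicate 2 and 70 lowest in replicate 3, against 4181 and 2318 of all 9206 expressed genes. Their median deviation in replicate 2 was 0.17 on the log2 scale. It was 0.05 over the 72 with a known length after removal of the length trend described below. All 73 mitochondrial ribosomal proteins were expressed at a median of 26.3 RPKM.

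Respiratory chain genes were abundant as a block. Of the 23 genes of ATP synthase and complex IV 22 were expressed, all among the first 500, with a median of 458 RPKM. The ATP synthase beta subunit ATPsyn-beta (ATPsynbeta) had 980, 1256 and 1126 RPKM and the alpha subunit blw 883, 1213 and 1096 RPKM. Every one of the 22 genes was lowest in replicate 1 and highest in replicate 2. Of all 9206 expressed genes, 4077 were lowest in replicate 1 and 4181 highest in replicate 2. Glycolysis genes had a median of 223 RPKM (13 of 13 expressed), and there too 11 of 13 were lowest in replicate 1 and 11 highest in replicate 2, while lactate dehydrogenase ImpL3 (Ldh) was the low exception at 5.90, 10.2 and 5.48 RPKM.

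**Figure D3:**
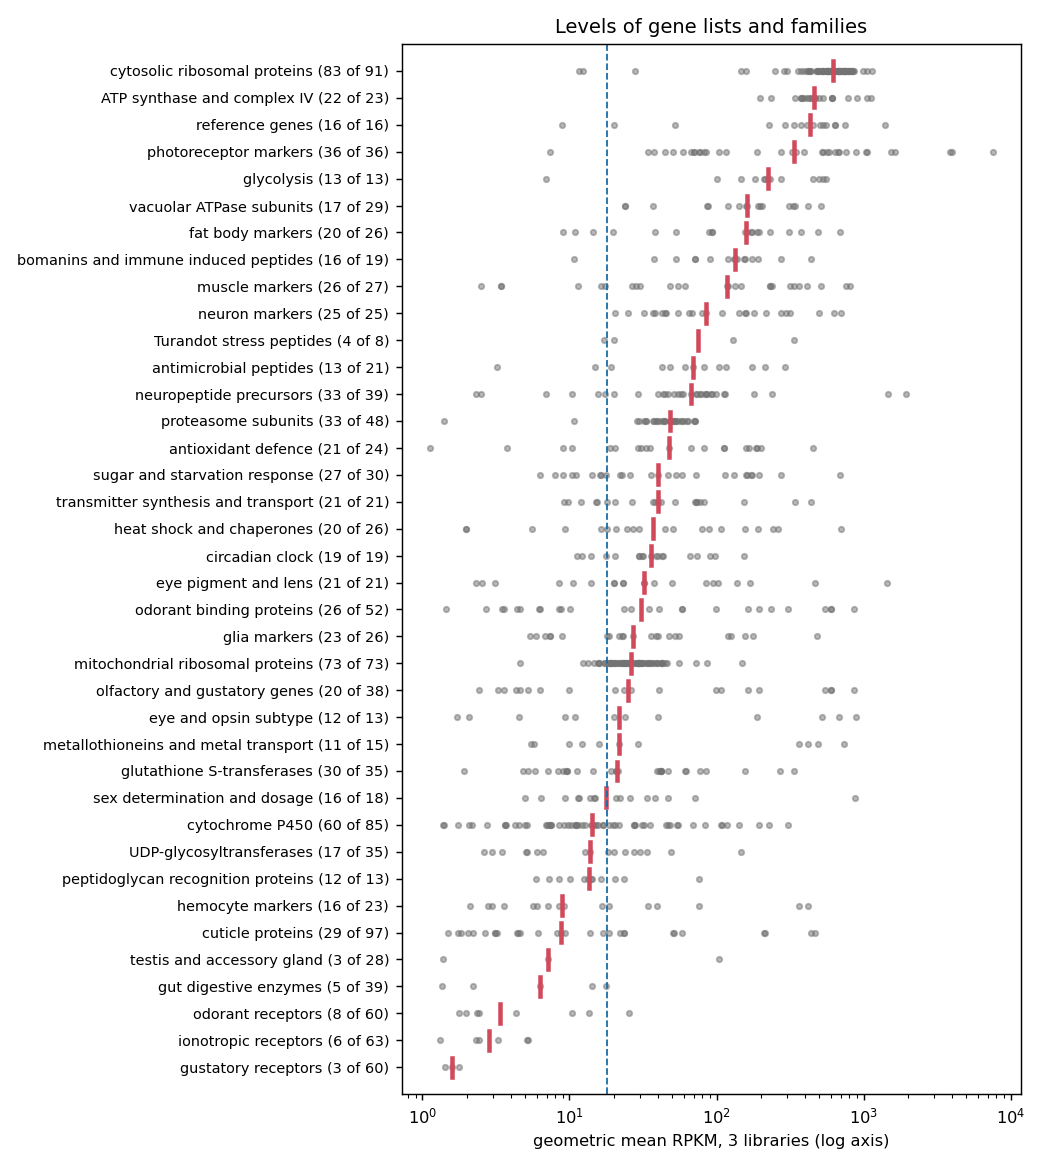
Geometric mean RPKM on a log axis of every expressed member (grey points) of 38 gene lists and families, with the median of each as a red bar and the median of all expressed genes, 18.0 RPKM, as a dashed line. The number expressed and the number in the table follow each name. Medians run from 615 RPKM for cytosolic ribosomal proteins to 1.60 RPKM for gustatory receptors.

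Neuronal genes were all present. The 25 neuron markers were expressed without exception, at a median of 84.3 RPKM. The sodium pump subunit nrv3 had 686, 690 and 749 RPKM, complexin (cpx) 647, 569 and 668 RPKM and the vesicle protein n-syb (nSyb) 502, 473 and 530 RPKM. elav, the RNA-binding protein used as a pan-neuronal marker, was lower at 34.4, 16.0 and 28.9 RPKM, and brp, a protein of the active zone, had 56.3, 29.3 and 46.4 RPKM. For 19 of the 25 genes replicate 2 was the lowest library, against 2811 of all 9206 expressed genes. Their median deviation from a gene's own 3-library mean was -0.21 in replicate 2, on the log2 scale. The median longest transcript of these genes is 7798 bases, against 2020 bases for all expressed genes, and replicate 2 was low for long transcripts in general, as described below.

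Transmitter genes were expressed at moderate levels, all 21 of them, with a median of 39.8 RPKM. t (tan), which regenerates histamine, the transmitter of photoreceptors, was highest at 395, 451 and 469 RPKM. The GABA-synthesising Gad1 had 312, 352 and 362 RPKM, dopa decarboxylase (Ddc) 149, 161 and 154 RPKM, and the vesicular transporters for acetylcholine (VAChT), glutamate (VGlut) and monoamines (Vmat) 76.7, 72.1 and 82.4 RPKM by geometric mean. Of 39 neuropeptide genes 33 were expressed. Beyond Nplp3 and Nplp2 the highest were Dms (Ms), at 231, 254 and 236 RPKM, and the insulin-like peptide Ilp2 of the brain's insulin-producing cells, at 152, 209 and 183 RPKM. Other peptides of the same cells differed more between libraries: Ilp5 had 21.6, 39.6 and 28.6 RPKM and Ilp3 2.96, 12.0 and 9.33 RPKM, lowest in replicate 1 in both. Neuropeptide genes were lowest in replicate 1 in 28 of 33 cases, against 4077 of all 9206 expressed genes. Their median deviation there was only -0.12 on the log2 scale. It was -0.05 over the 32 with a known length after removal of the length trend described below.

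Glial genes were lower than neuronal ones. Of 26 markers 23 were expressed, at a median of 27.0 RPKM. Glutamine synthetase Gs2 led at 492, 514 and 447 RPKM, followed by the glutamate transporter Eaat1 at 178, 169 and 187 RPKM. The glial transcription factor repo had 23.9, 21.1 and 23.1 RPKM and the blood-brain barrier receptor moody 24.2, 20.1 and 21.1 RPKM. The early glial fate genes gcm and gcm2 were at 1 RPKM in all 3 libraries.

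The clock genes varied little between libraries, as did other genes of their transcript length. All 19 were expressed, with a median of 36.0 RPKM and a median SD of log2 RPKM of 0.10, against 0.14 over all expressed genes. Their median longest transcript is 4112 bases, and expressed genes with 3782 to 5173 bases had a median SD of 0.095. The light receptor cry had 148, 162 and 153 RPKM, tim 42.7, 43.8 and 41.5 RPKM, Clk 22.7, 18.7 and 20.5 RPKM, cyc 26.7, 34.9 and 28.0 RPKM, per 11.8, 13.3 and 11.5 RPKM and vri 12.5, 9.58 and 12.0 RPKM. Pdf, the neuropeptide of the clock neurons, had 65.8, 76.0 and 78.3 RPKM. Since per, tim and vri cycle over the day, their closeness describes libraries whose collection time is not given in the sources used here.

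The fat body and muscle lists both had medians above the 18.0 RPKM of all expressed genes. They took 0.785% ± 0.171 and 1.09% ± 0.182 of the summed RPKM (SD, n = 3 libraries). Fat body genes had a median of 160 RPKM over 20 expressed of 26, with desat1 (Desat1), a fatty acid desaturase, at 798, 666 and 625 RPKM and the iron carrier Tsf1 at 642, 513 and 365 RPKM. The larval serum protein Lsp2 had 467, 349 and 183 RPKM and the lipid carrier Rfabg (apolpp) 340, 182 and 202 RPKM. Replicate 1 was the highest library for 15 of 20 fat body genes, and replicate 3 the lowest for 12. Over all 9206 expressed genes these counts were 2789 and 2318. The female yolk protein genes Yp1 and Yp2 were at 1 RPKM throughout, together with Fbp1, Fbp2, Lsp1alpha and Lsp1gamma, while Yp3 had 35.6, 42.9 and 36.5 RPKM.

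Muscle genes were mostly lowest in replicate 1. The 26 expressed genes of 27 had a median of 118 RPKM, led by the actin Act57B at 636, 941 and 875 RPKM and arginine kinase Argk (Argk1) at 665, 873 and 765 RPKM. The myosin light chains Mlc2 and Mlc1 had 365, 640 and 589 RPKM and 287, 507 and 487 RPKM. Replicate 1 was lowest for 21 of 26 muscle genes, against 4077 of all 9206 expressed genes. The median deviation of the muscle genes there was -0.28 on the log2 scale. It was -0.24 over the 22 with a known length after removal of the length trend described below. The flight muscle actin Act88F was near the floor at 2.78, 4.70 and 3.06 RPKM.

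Organs outside the head left almost no signal. Of 28 testis and accessory gland genes 25 were at 1 RPKM in all 3 libraries, among them Acp70A (SP), Mst87F and betaTub85D, and bol, at 109, 93.2 and 108 RPKM, was the only one of the other 3 above 10 RPKM. Of 39 gut genes 34 were at 1 RPKM, including all listed trypsins and Jonah proteases. The exceptions included the amylases Amy-p, at 11.8, 53.3 and 8.81 RPKM, and Amy-d, at 11.9, 22.7 and 10.7 RPKM. Of 25 ovary, salivary and renal genes 23 were at 1 RPKM, including the vitelline membrane gene Vm26Aa and the chorion gene Cp36.

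The labelled sex was checked on the male dosage compensation RNAs, which were abundant. In males the single X is upregulated by the MSL complex, which carries the roX RNAs. roX1 had 899, 808 and 905 RPKM, rank 31, and roX2 66.0, 71.3 and 77.6 RPKM, a ratio of roX1 to roX2 of 12.2 ± 1.24 (SD, n = 3). The protein components were much lower: msl-2, made in males, had 21.2, 21.3 and 23.5 RPKM, mle 34.2, 32.4 and 34.4 RPKM and mof 5.27, 5.06 and 4.70 RPKM. Expressed X genes had a median of 18.3, 18.0 and 18.5 RPKM, against 17.8, 18.2 and 18.0 RPKM for 7665 autosomal genes, and the ratio of the medians was 1.01 ± 0.0229 (SD, n = 3). The tiny chromosome 4 stood out in level: 80 of its 87 genes were expressed, with medians of 51.7, 53.8 and 59.8 RPKM, led by ATPsyn-beta and RpS3A.

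The chemosensory genes were split. Several odorant-binding proteins were abundant, with Obp44a at 662, 1090 and 884 RPKM, Obp99c at 709, 621 and 498 RPKM and Obp56d at 612, 584 and 593 RPKM. The olfactory receptor partner Or83b (Orco), used by most olfactory neurons, had only 4.44, 3.69 and 5.05 RPKM. Of 60 odorant receptor genes 8 were expressed, of 60 gustatory receptors 3 and of 63 ionotropic receptors 6, the highest receptor being Or43b at 22.8, 26.4 and 26.7 RPKM.

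Some antennal binding proteins separated replicate 3 from the other libraries. Os-E (Obp83b; chromosome 3R of dm3, 1801897 to 1802539) had 1.56, 1.26 and 23.1 RPKM, the largest SD of log2 RPKM of all expressed genes at 2.34. Its paralogue Pbprp3 (Obp83a) was listed at 1.12, 1 and 23.9 RPKM and the antennal protein a10 at 1.25, 1 and 19.1 RPKM. lush, an odorant-binding protein of pheromone-sensing sensilla, was listed at 1, 1.07 and 3.98 RPKM. Of the 20 expressed genes of the olfactory list, 2 were over 2-fold above both others in replicate 3. Over all expressed genes this count was 4 of 9206 (0.0434%). In replicates 1 and 2 the count for the list was 0. Another 5 genes of the list were over 2-fold higher in replicate 3, but had a library at 1 RPKM. These 5 lie outside the expressed set and are not counted as calls. Os-C, an olfactory-organ protein outside the list, was also highest in replicate 3, at 1.76, 2.89 and 20.3 RPKM. Other genes of the list did not follow: of its 20 expressed members 10 were highest in replicate 1 and 7 in replicate 3, and Snmp (Snmp1), a membrane protein of pheromone-sensing neurons, had 10.1, 9.24 and 10.4 RPKM.

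Most genes agreed closely between the libraries. The SD of log2 RPKM over the 3 libraries had a median of 0.14 and the highest library was typically 1.20 times the lowest. Of 9206 genes, 252 (2.74%) had an SD over 0.5 and 37 an SD over 1. The spread depended on level, with a median SD of 0.23 for the 362 genes between 1 and 2 RPKM, 0.11 for the 886 genes between 50 and 100 RPKM and 0.15 above 500 RPKM. Pearson's r of log2 RPKM across the 9206 genes, which are not independent replicates, was 0.982 for replicates 1 and 2, 0.989 for 1 and 3, and 0.989 for 2 and 3. No expressed gene had an identical value in any pair of libraries.

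Part of this spread followed transcript length. Each library's deviation from a gene's 3-library mean was taken over 10 equal bins of the longest annotated transcript, which was known for 90.5% of expressed genes. In replicate 2 the median deviation was 0.13 in the bin of shortest transcripts and -0.16 in that of the longest, on the log2 scale, and each bin was below the one before. Replicate 1 ran the opposite way, from -0.09 to 0.11, and replicate 3 less steeply, from -0.03 to 0.05. Spearman's rho with length, across genes, was 0.34 in replicate 1, -0.50 in replicate 2 and 0.24 in replicate 3. Because the 3 deviations of a gene cancel out, these trends are not independent. A fall with length in replicate 2 brings a rise in the others by construction. The part of RNA quality or library preparation in this trend was not tested.

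**Figure D4:**
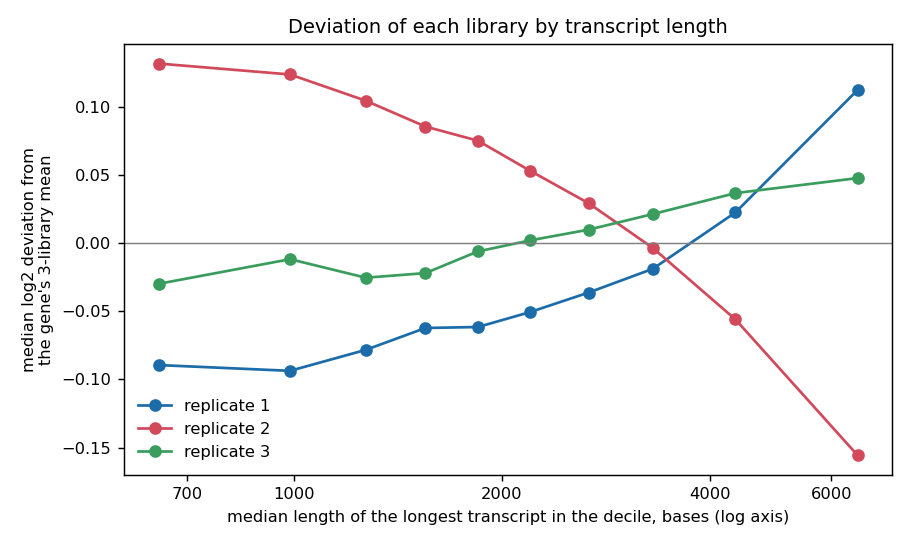
Median log2 deviation of each library from the gene's 3-library mean, for 10 bins of expressed genes by longest transcript, against the median length of the bin on a log axis. Replicate 2 goes from 0.13 at the short end to -0.16 at the long end, and replicate 1 from -0.09 to 0.11.

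The trend touches lists of long and short genes. After subtraction of the median of each bin, the deviation of the neuron markers in replicate 2 was -0.08, against -0.21 before. That of ATP synthase and complex IV in replicate 1 was -0.15, against -0.24 before. The values after subtraction cover only genes with a known length, 22 neuron markers and 20 of ATP synthase and complex IV. Part of each change can come from the genes left out. In replicate 1 the bomanin and Turandot lists had slightly larger deviations after the subtraction, 0.42 and 1.31, against 0.32 and 1.22 before. The hemocyte list had a smaller deviation there, 0.23 over 15 genes against 0.32 over 16. Antimicrobial peptides in replicate 2 had 0.77 over 12 genes, against 0.93 over 13.

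Genes that set a single library apart were few. With a fixed rule of more than 2-fold above both other libraries, which carries no test because 1 library stands against 2, replicate 1 had 28 genes (0.304% of 9206), replicate 2 had 18 (0.196%) and replicate 3 had 4 (0.0434%). More than 2-fold below both others were 12 genes in replicate 1 (0.13%), 17 in replicate 2 (0.185%) and 13 in replicate 3 (0.141%).

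Replicate 1 was high in some hemocyte genes and in the Turandot genes. Hemolectin (Hml), a clotting protein of plasmatocytes, had 8.86, 1.51 and 2.01 RPKM, and the prophenoloxidase proPO-A1 (PPO1) of crystal cells 6.76, 1.24 and 1.1 RPKM. Ppn, a matrix protein, had 13.02, 2.67 and 2.93 RPKM, and the scavenger receptor Sr-CI 6.57, 2.12 and 1.55 RPKM. Of the 16 expressed hemocyte genes 5 were called high in replicate 1 and 11 were highest there, against 28 and 2789 of all 9206. The list's median was only 8.87 RPKM, and eater, He and nimC1 (NimC1) were at most 1.93 RPKM. The abundant ferritins Fer1HCH and Fer2LCH of the same list had 400, 463 and 395 RPKM and 337, 419 and 346 RPKM, highest in replicate 2.

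All 4 expressed Turandot genes, secreted proteins of the stress response, were called high in replicate 1, against 28 of all 9206 expressed genes. TotA had 716, 230 and 234 RPKM, TotC 351, 73.2 and 82.7 RPKM, TotM 50.9, 10.6 and 14.9 RPKM, and TotX 33.2, 12.8 and 11.8 RPKM. The other 4 genes of the family were at 1 RPKM. Adult cuticle genes were low in the same library: Acp1 had 19.5, 101 and 70.7 RPKM, Cpr92F 1.56, 5.33 and 4.05 RPKM, and Cpr62Bc 4.23, 13.4 and 9.62 RPKM. Of 29 expressed cuticle genes 21 were lowest in replicate 1 and 25 highest in replicate 2. Over all 9206 expressed genes these counts were 4077 and 4181.

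Replicate 2 was high in antibacterial genes. Antimicrobial peptides are secreted by the fat body and induced through the Toll and IMD pathways. The largest contrast was PGRP-SC2, an amidase that degrades peptidoglycan, at 7.36, 95.7 and 6.20 RPKM, followed by defensin (Def) at 5.96, 76.3 and 7.20 RPKM. Diptericin (Dpt, now DptA) had 44.7, 174 and 42.1 RPKM, AttA 31.0, 91.1 and 26.9 RPKM, AttB 14.2, 43.9 and 11.2 RPKM, and drosocin (Dro) 208, 538 and 225 RPKM. Of the 13 expressed antimicrobial peptide genes, 7 were called high in replicate 2, and 11 were highest there. Over all 9206 expressed genes these counts were 18 and 4181. The amylase Amy-p was called in the same library.

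Replicate 3 was low in peptides of the same class. Drosomycin (Drs) had 359, 438 and 62.8 RPKM and metchnikowin (Mtk) 208, 184 and 41.6 RPKM, so in these genes replicates 1 and 2 were close and replicate 3 apart. AttC had 49.2, 138 and 16.5 RPKM and DptB 68.9, 116 and 28.6 RPKM, called low in replicate 3, with AttC also called high in replicate 2. The bomanin IM23 (BomBc1) had 84.7, 117 and 36.3 RPKM. The 16 expressed bomanins and immune-induced peptides were lowest in replicate 3 in 14 cases and highest in replicate 1 in 12. Over all 9206 expressed genes these counts were 2318 and 2789. The list of antimicrobial peptides had the second largest median SD of log2 RPKM of the lists, 1.02, against 1.07 for Turandot genes and 0.14 for all expressed genes. IM18, called in replicate 2, has the same interval and the same values as CG10332, so these cannot be told apart.

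**Figure D5:**
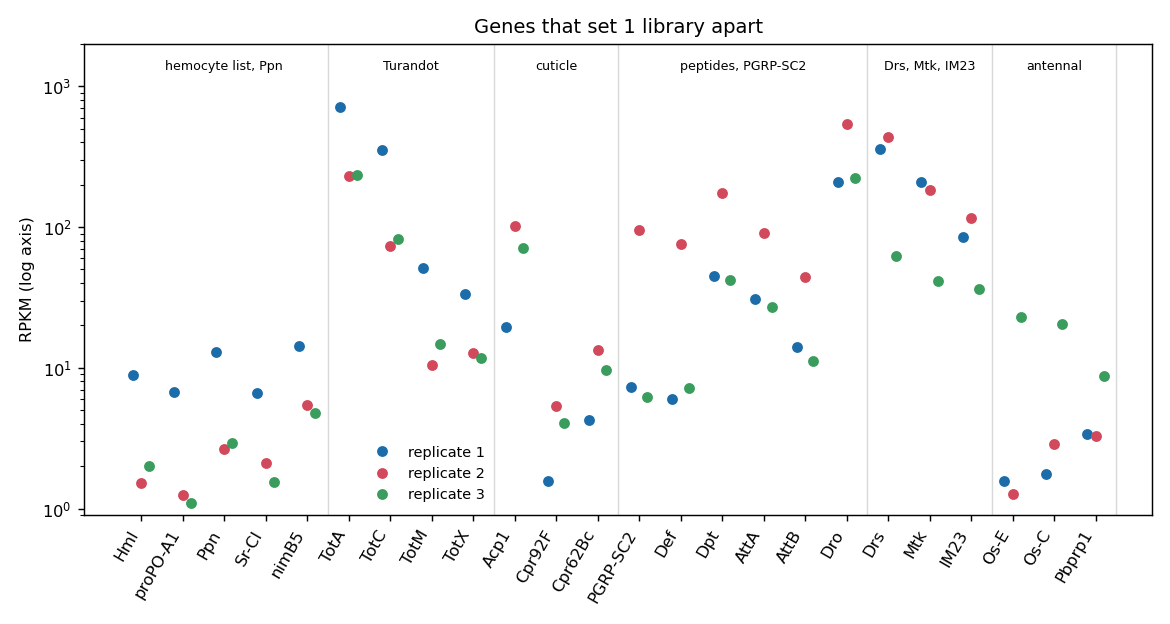
RPKM on a log axis, a point per library, for genes called apart in 1 library, by group. Hml, TotA and their neighbours are highest in replicate 1, PGRP-SC2 and Def in replicate 2 at 95.7 and 76.3 RPKM, Drs and Mtk lowest in replicate 3 at 62.8 and 41.6 RPKM, and Os-E highest in replicate 3 at 23.1 RPKM.

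An activity-regulated gene also differed. Hr38, a nuclear receptor induced by neuronal activity, had 14.3, 2.75 and 6.49 RPKM and was called in both directions, high in replicate 1 and low in replicate 2. Another activity-regulated gene, sr, chosen after its values were seen, had 8.66, 2.80 and 5.58 RPKM, in the same order of libraries but short of the 2-fold rule.

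Genes of stress defence, on which the study's design bears, had a median SD of log2 RPKM of 0.13 for antioxidant genes, 0.18 for glutathione S-transferases, 0.18 for cytochrome P450 genes and 0.19 for heat shock and chaperone genes, against 0.14 over all expressed genes. Of 24 antioxidant genes 21 were expressed, at a median of 47.8 RPKM, with superoxide dismutase Sod (Sod1) at 435, 497 and 427 RPKM and catalase (Cat) at 196, 141 and 142 RPKM. Of 26 heat shock and chaperone genes 20 were expressed, of which 16 were lowest in replicate 1, and all 6 Hsp70 genes were at 1 RPKM in all 3 libraries. Hsc70-4, the constitutive counterpart, had 695, 771 and 657 RPKM. The metallothionein MtnA had 692, 817 and 699 RPKM, while MtnB and MtnC were at 1 RPKM. Detoxification genes were broad but lower, with 60 of 85 cytochrome P450 genes expressed at a median of 14.1 RPKM and 30 of 35 glutathione S-transferases at 21.2 RPKM. Cyp313a1 was the highest P450 at 363, 290 and 278 RPKM, and 42 of the 60 were highest in replicate 1. Over all 9206 expressed genes, 2789 were highest and 4077 lowest in replicate 1.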

How the data were processed

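RNA-seq of sucrose-fed Canton S male heads was analysed from the table the authors deposited. Per the labels, mRNA libraries were sequenced as paired-end reads and mapped with TopHat2 2.0 to dm3. The authors deposited 1 RPKM value per gene and library. The methods name trimmed means of M-values, but whether the RPKM carry this scaling, and the counting tool, are not given in the sources used here. No RPKM is below 1. Without counts per gene, no counting error or count test could be given. All 6 library columns matched a sample, and the 3 PQ columns, like the authors' table of fold changes and p-values between feedings, were not used.

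Expressed genes exceeded 1 RPKM in all 3 libraries. Levels are geometric means, and spread is the SD of log2 RPKM, with no pseudocount. The labels call the libraries replicates and the methods independent biological samples. The methods name a further replicate per feeding, which is not analysed here. The rule on single libraries was also run on simulated data with planted genes, which gives no error rate for the calls made here. The 27 gene lists with genes in the table and 12 families were matched by symbol, synonym or RefSeq symbol, and 20 of 652 list entries were not found, 12 of them Y-linked genes. Members and lists were chosen with earlier results of these data known. By rule, genes named were the 30 highest, the 20 of largest SD, up to 10 per library farthest from the nearer other library, up to 8 highest and the most variable of each list, and any of the photoreceptor, sex, antimicrobial, Turandot, testis, gut and clock lists. Other genes named, such as sr, a10, lush, st, ss, melt, Tbp and Cyp1, were chosen after their values were seen. Transcript length is the longest transcript of the Ensembl annotation, by FlyBase identifier. Promoter sequences were not used here. Alternatives were thresholds of 2 and 5 RPKM, above 1 RPKM in any library, a fold of 1.5, log2(RPKM + 0.5), trimmed means of M-values, quantile normalization, median centring, arithmetic means, autosomes without chromosome 4 and leaving out each library. Length correction was added after seeing the data. Python 3.11.15, pandas 2.3.3, numpy, scipy and matplotlib 3.10.9 were used.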

Additional observations from a re-analysis of the deposited data

How the results depend on the processing

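No paired analysis was possible because a single group was used and no test was made. The number of expressed genes was 8666 above 2 RPKM, 7529 above 5 RPKM and 9677 when 1 library above 1 RPKM sufficed, and 9257 to 9292 when a library was left out. The median SD of log2 RPKM was 0.11 after length correction and 0.09 to 0.14 with a library left out, lowest without replicate 2. The counts of genes that set a library apart depended most on the settings. The 50 calls above both others became 19 with a threshold of 5 RPKM, 87 with genes above 1 RPKM in any library and 206 at a fold of 1.5. The 42 calls below both others became 26 on log2(RPKM + 0.5), 14 above 5 RPKM and 255 at a fold of 1.5. These follow from fewer or more genes, a smaller fold, or, on the log2(RPKM + 0.5) scale, the shrinkage of low values. Trimmed means, quantile normalization and length correction gave 51 to 53 calls above and 35 to 44 below. The length-corrected counts and median SD rest on the 8332 expressed genes with a known length, fewer than in the main setting. Of 10 calls below both others in replicate 2 whose gene has a length, 7 remained after length correction. The ratio of X to autosome medians was 1.003 to 1.028, Rh4 to Rh3 1.29 to 1.34 and Rh6 to Rh5 2.75 to 2.84 with a library left out. Of 190 list medians under alternatives, 9 moved by more than their spread between libraries. Leaving out a library changed 3 list medians by over 1.5 times: Turandot genes had 45.2 RPKM without replicate 1, against 74.3 RPKM with all 3 libraries, and without replicate 2 the antimicrobial peptides had 44.4 RPKM, against 69.0, and the olfactory list 15.8 RPKM, against 25.0. Of the first 30 genes, 28 to 30 were shared under each alternative ranking. The planned search of promoters was not run. Depth per gene is unknown. Values at 1 RPKM are a floor of the table, not a measurement, and do not show that a gene is silent.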

Other observations

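Genes often used for normalization differed in steadiness between these 3 libraries. Tbp, the TATA-binding protein, had 8.94, 8.80 and 8.83 RPKM, the actin Act5C 482, 539 and 506 RPKM, and the cyclophilin Cyp1 345, 341 and 322 RPKM. RpL32, the rp49 control of fly qRT-PCR, had 363, 425 and 346 RPKM, and Gapdh1 458, 663 and 575 RPKM. Both were highest in replicate 2, and so was Act5C. In the list of 16 reference genes, 12 were highest in replicate 2, against 4181 of all 9206 expressed genes. The list's median SD of log2 RPKM was 0.16, against 0.14 over all expressed genes.

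Some intervals of the table carry more than 1 gene. Adhr and Adh share chromosome 2L of dm3 from 14615555 to 14618902, and Adhr was 1.05 times Adh in each library. Hsp22 and Hsp67Bb share an interval on chromosome 3L, with 1.65, 2.04 and 2.26 RPKM for Hsp22. Of the 9206 expressed genes, 3555 overlap another gene of the table.

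Among genes that the table types as ncRNA the highest was CR32477, at 1051, 964 and 1018 RPKM, whose interval overlaps CG16971, followed by roX1. Hsromega, a nuclear RNA of the heat shock response, had 25.2, 23.1 and 25.3 RPKM.

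Other gene groups were described by their levels alone. Peptidoglycan recognition proteins had a median of 13.7 RPKM (12 of 13 expressed), genes of the sugar and starvation response 40.3 RPKM (27 of 30), proteasome subunits 48.0 RPKM (33 of 48) and vacuolar ATPase subunits 162 RPKM (17 of 29). UDP-glycosyltransferases had 13.8 RPKM (17 of 35) and metallothionein and metal transport genes 21.6 RPKM (11 of 15).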
